A study of Homo sapiens with 12 samples.

Results

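ALPP, ICA1, PSCA, ADIRF, BNIPL, PCSK5 and FAM83B are 7 of the 26365 genes in a table of HCC70 cells with and without an shRNA against LAD1. They were chosen by their values: each was higher with the LAD1 shRNA than with the scrambled shRNA at all or most of the times measured. Their shLAD1 and scramble levels are therefore given as a description, with no test.

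HCC70 is a human triple-negative breast cancer line of the basal-like type. One stable derivative carried a scrambled shRNA (scramble cells) and the other an shRNA against LAD1 (shLAD1 cells). Both went overnight without serum and then were stimulated with EGF (epidermal growth factor, 50 ng/ml), with RNA taken at 0, 40 or 240 min, so the 0 min groups are starved cells without EGF. Poly-A RNA was sequenced from 2 libraries in each of the 6 groups, 12 in all. The labels name a single shRNA against LAD1 and do not say whether a derivative is a clone or a pool. Loss of LAD1 and any other effect of that shRNA therefore cannot be told apart. Libraries without EGF at 40 or 240 min were not analysed here, so EGF cannot be told apart from time and handling.

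LAD1 encodes ladinin-1, first known as a protein of the basement membrane beneath epithelia and also found with actin inside cells. EGF binds the receptor EGFR and sets off the RAS and MAP kinase cascade, which changes transcription in waves of early and later genes. The 7 genes have different roles. ALPP and PSCA encode proteins held on the cell surface by a lipid (GPI) anchor. ALPP is the placental type of alkaline phosphatase, normal to the placenta and made by some tumours. PSCA, prostate stem cell antigen, is a small glycoprotein of the LY6 family. PCSK5 is a proprotein convertase, a protease that cuts precursors in the secretory pathway, and ICA1 is a membrane-curving protein of the Golgi and secretory granules that binds RAB2. FAM83B is a scaffold that has been tied to signalling from EGFR and RAS. BNIPL is a relative of BNIP2 with a BCH domain, a fold for protein binding, and ADIRF is a small protein first described as a promoter of fat cell differentiation.

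The starts of 3 genes are shown because ALPP had the largest log2 difference of the 7 between the shRNAs averaged over times, and BNIPL and FAM83B were the members that answered EGF. Each sequence is the 250 bases before the RefSeq start, 5′ to 3′ on the gene's strand in GRCh38.p14, a build other than the hg19 of the expression files. Capitals mark a GC box (GGGCGG or its reverse complement). ALPP lies at chr2:232378501-232378750 on the plus strand, BNIPL at chr1:151036336-151036585 on the plus strand and FAM83B at chr6:54846521-54846770 on the plus strand.
ALPP: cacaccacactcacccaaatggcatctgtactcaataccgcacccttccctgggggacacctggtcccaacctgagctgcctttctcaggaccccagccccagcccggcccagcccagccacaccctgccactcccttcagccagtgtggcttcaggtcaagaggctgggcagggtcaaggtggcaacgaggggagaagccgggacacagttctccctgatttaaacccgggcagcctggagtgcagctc
BNIPL: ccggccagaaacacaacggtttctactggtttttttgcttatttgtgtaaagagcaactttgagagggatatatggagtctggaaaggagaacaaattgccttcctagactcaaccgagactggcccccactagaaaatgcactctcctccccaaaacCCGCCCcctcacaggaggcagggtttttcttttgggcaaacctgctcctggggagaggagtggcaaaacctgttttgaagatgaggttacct
FAM83B: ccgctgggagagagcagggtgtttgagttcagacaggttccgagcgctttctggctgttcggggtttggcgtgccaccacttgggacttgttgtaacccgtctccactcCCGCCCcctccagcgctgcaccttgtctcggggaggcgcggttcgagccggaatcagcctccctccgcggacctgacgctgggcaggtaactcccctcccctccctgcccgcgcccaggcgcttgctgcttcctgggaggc
The ALPP stretch holds no GC box and the other 2 hold 1 each. Of the 6 members with an entry (all but PSCA), 5 held a GC box, against 42.3% of all 27305 RefSeq promoters of that length. ICA1 and PCSK5 held 2 each and ADIRF held 1. None of the 6 held the AP-1 letters TGANTCA (6.6% of all promoters), the E-box CACGTG (6.49%), the TATA box TATAAA (11.1%), CCAAT (33.0%), the TEAD letters GGAATG (11.9%) or the STAT letters TTCNNNGAA (6.78%), searched on both strands. No match overlapped another. The share of G and C ran from 48.8% in BNIPL to 78.0% in ICA1, beside a median of 58.0% over all promoters.

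The libraries held 12428618 to 16721013 reads. LAD1 lay at 5808 to 10190 normalized counts (reads divided by a size factor of the library) in scramble libraries and at 865 to 2535 in shLAD1 libraries, so the groups did not overlap. Basal and epithelial markers were high in all 12 libraries, with KRT5 at 39620 to 78200 and EPCAM at 2644 to 3552, and PGR was at 0 to 1.03. Of the 6 fibroblast markers, COL1A1 carried nearly the whole sum, at 243 to 374 in scramble and 507 to 895 in shLAD1 libraries. COL1A2, COL3A1, DCN and LUM were at or near 0, with at most 1.02. The immune list was likewise almost all CD68 (741 to 1017 and 1081 to 1577), and its leukocyte marker PTPRC was at most 1.11. The sum of the 3 endothelial markers was 10.1 to 17.6 in scramble and 29.8 to 46.0 in shLAD1 libraries, with CDH5 at 2.25 to 7.20 and 19.3 to 28.3. The fibroblast, immune and endothelial sums were higher in shLAD1 libraries, as the 7 genes were, and their part in the results was not tested.

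The 2 surface proteins showed large differences. ALPP had 128.4 and 31.87 normalized counts in the 2 scramble libraries at 0 min, 99.95 and 33.4 at 40 min and 130.6 and 27.83 at 240 min. With the LAD1 shRNA it had 834.8 and 779.6 at 0 min, 623.6 and 830.9 at 40 min and 703.9 and 685.4 at 240 min. The lowest shLAD1 library was 4.78 times the highest scramble library. In scramble cells the ALPP level split by replicate number, and in shLAD1 cells it did not. The mean of all shLAD1 libraries was 9.86 times that of all scramble libraries. The log2 difference averaged over the 3 times was 3.58 ± 0.48 (SE), which ranked 8 of 13950 genes tested. Here and below, the SE of this difference treats the libraries of an shRNA as independent. Same-numbered libraries of an shRNA resembled each other across times, so it can be too small. In bulk RNA a change in the number of cells that make a transcript and a change in the amount per cell cannot be told apart.

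PSCA showed the same order of groups. Its scramble libraries held 213.2 and 311.5 normalized counts at 0 min, 228.4 and 330.6 at 40 min and 201.5 and 248.3 at 240 min. In shLAD1 libraries it held 1246 and 981.1, then 1183 and 964, then 1141 and 926.5. Every shLAD1 library was at least 2.8 times the highest scramble library. Replicate 1 was the lower of each scramble pair and the higher of each shLAD1 pair. The ratio of means was 4.2 over all libraries, and the log2 difference was 2.08 ± 0.14 (rank 67).

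Of the 2 genes of the secretory pathway, PCSK5 split by replicate number in both kinds of cell. PCSK5 had 101.4 and 30.85 normalized counts in scramble libraries at 0 min, 87.26 and 30.89 at 40 min and 111.4 and 42.31 at 240 min. In shLAD1 libraries it had 426.1 and 168.9, then 370.7 and 162.4, then 454.3 and 172.1. The groups did not overlap, but the lowest shLAD1 library was only 1.46 times the highest scramble library. Replicate 1 was the higher of all 6 pairs. Within each replicate number the ratio was 4.08 to 4.25 in replicate 1 and 4.07 to 5.48 in replicate 2. Over times the log2 difference was 2.15 ± 0.5 (rank 64), and its error carries the split between replicates.

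ICA1 was barely detected in scramble cells, at 11 to 30 reads a library. It held 18.63 and 11.31 normalized counts at 0 min, 23.8 and 15.03 at 40 min and 13.51 and 17.81 at 240 min. In shLAD1 libraries it held 211.5 and 98.72, then 223 and 81.73, then 198.5 and 89.05. All 6 shLAD1 libraries stood at least 3.43 times above the highest scramble library, and replicate 1 was the higher of each shLAD1 pair. The ratio of all-library means was 9.02 and the log2 difference 3.01 ± 0.34 (rank 16). Reads of ICA1 and of an overlapping antisense gene cannot be told apart where counting ignores strand, and the use of strand is not given in the sources used here.

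ADIRF means of the 2 replicate numbers, taken over the 3 times, lay within 1.16-fold in each kind of cell. Its scramble libraries held 232.9 and 234.4 normalized counts at 0 min, 250.7 and 290.6 at 40 min and 245.4 and 218.2 at 240 min. In shLAD1 libraries the values were 736.2 and 621.8, then 630.4 and 626.6, then 798.1 and 614.3. Every shLAD1 library of replicate 1 was thus above every shLAD1 library of replicate 2. No library of one kind came near the other, since the lowest shLAD1 library was 2.11 times the highest scramble library. The log2 difference was 1.45 ± 0.082 (rank 155), a ratio of means of 2.74. An antisense gene also overlaps ADIRF, with the same limit as for ICA1.

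BNIPL and FAM83B changed with time as well, so their ranges overlapped across times but not within any one time. BNIPL had 94.2 and 67.86 normalized counts in scramble libraries at 0 min, 73.77 and 66.8 at 40 min and 31.52 and 32.29 at 240 min. In shLAD1 libraries it had 177.6 and 129.2, then 162.2 and 157.2, then 133 and 81.04. Both kinds of cell were lowest at 240 min, and the shLAD1 mean was 1.89 times the scramble mean at 0 min, 2.27 times at 40 min and 3.35 times at 240 min. Over times its log2 difference was 1.25 ± 0.15 (rank 209).

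FAM83B ran the other way with time. Its scramble libraries held 184.3 and 223.1 normalized counts at 0 min, 195.1 and 215.4 at 40 min and 399.6 and 456.5 at 240 min. In shLAD1 libraries it held 378.9 and 398.9, then 379.4 and 435.9, then 524.9 and 573.3. The scramble cells at 240 min thus reached the level of starved shLAD1 cells, and the ratio of means was 1.91 at 0 min, 1.99 at 40 min and 1.28 at 240 min. The log2 difference over times, 0.76 ± 0.074, was the smallest of the 7 and ranked 502. The rule sets no number as its limit: WNT2B and ELFN2 lay just above FAM83B at 0.762 and 0.761, and DNAH1 and TSKU just below it at 0.759.

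**Figure D1:**
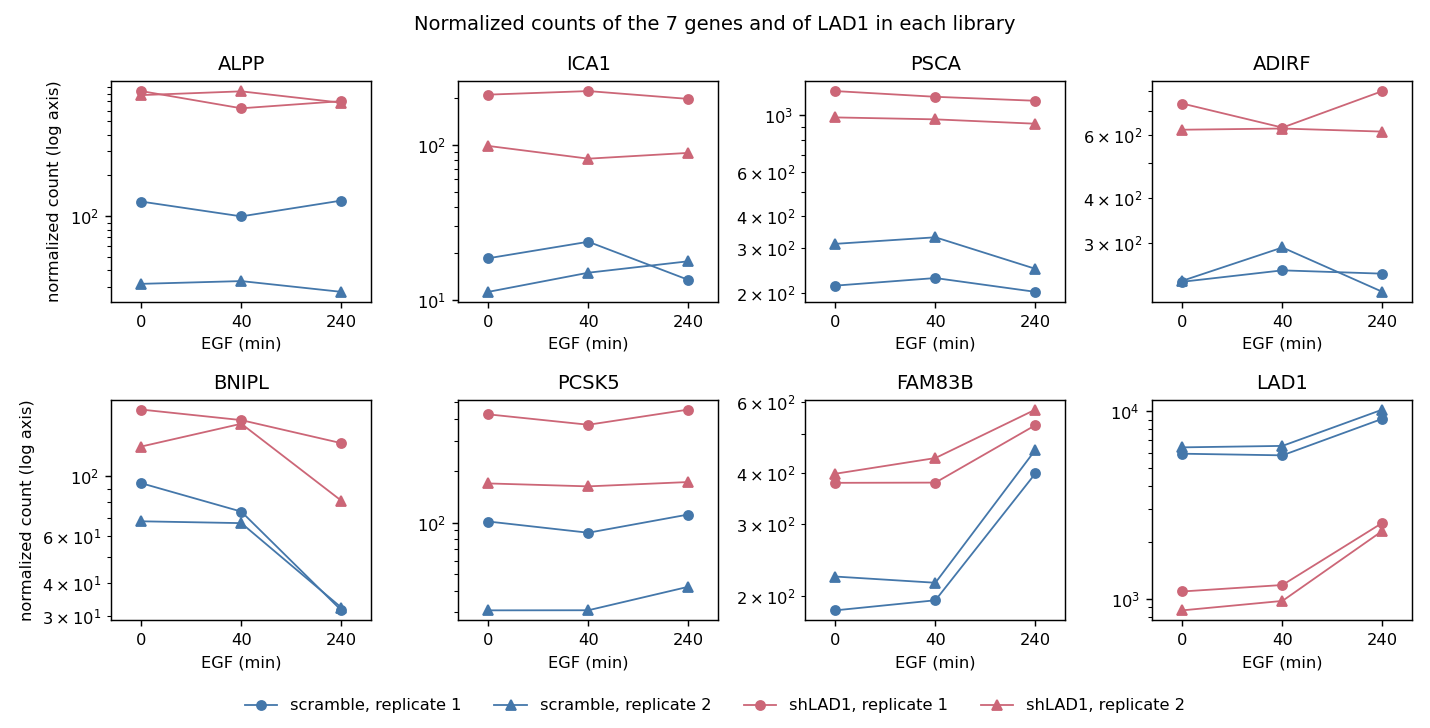
Normalized counts (log axis, scale differs by panel) of the 7 genes and LAD1 at 0, 40 and 240 min of EGF; each point is a library, blue for scramble and red for shLAD1, circles for replicate 1 and triangles for replicate 2, joined within a replicate number. The shLAD1 points lie above the scramble points of the same time for the 7 genes and below them for LAD1.

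Every shLAD1 library was above every scramble library for 5 of the 7 genes, all but BNIPL and FAM83B. The same held for 441 of all 13950 genes tested, or 3.16%, and the reverse order for 557. All 7 genes passed the filter on low values. The median log2 difference of the 7 was 2.08. The choice of the genes fixes both figures.

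**Figure D2:**
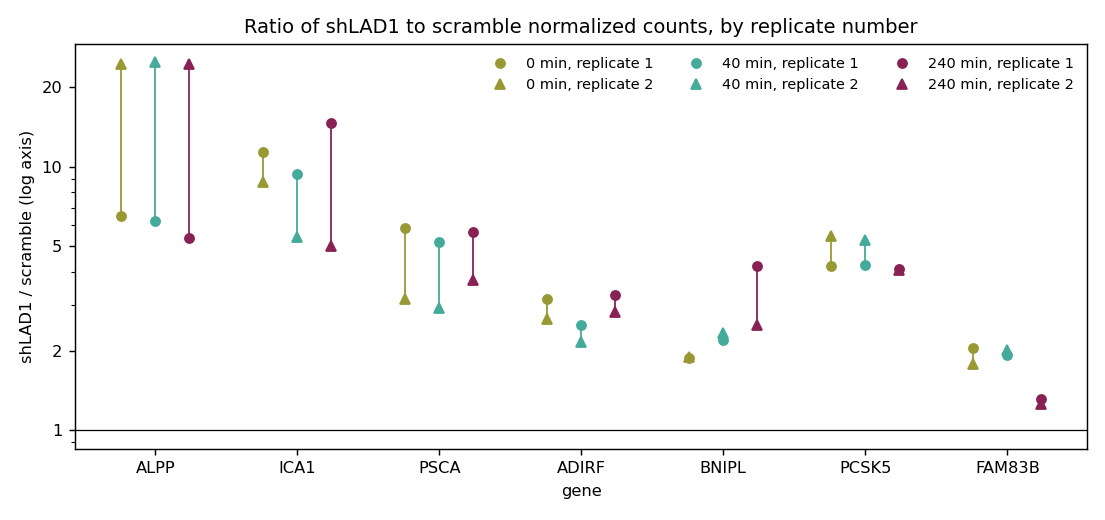
Ratio of the shLAD1 to the scramble normalized count (log axis) for each gene, coloured by time; circles are replicate 1, triangles replicate 2, and a line joins the 2 ratios of a time, with 1 marking equal levels. ALPP ratios are 5.39 to 6.5 in replicate 1 and 24.5 to 24.9 in replicate 2, and FAM83B is nearest to 1 at 240 min.

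The replicate numbers marked steady differences in several of the genes. ALPP in scramble cells averaged 119.6 in replicate 1 and 31.04 in replicate 2, a ratio of 3.85, while in shLAD1 cells the ratio was 0.942. Its shLAD1 to scramble ratio was therefore 5.39 to 6.5 in replicate 1 and 24.5 to 24.9 in replicate 2. ICA1 showed the split in shLAD1 cells alone, with means of 211 and 89.83 (ratio 2.35) beside overlapping scramble values. PCSK5 showed it in both, with ratios of 2.88 in scramble and 2.49 in shLAD1 cells. Among all tested genes 3.25% differed by more than 2-fold between replicate numbers in scramble cells and 6.46% in shLAD1 cells. The replicate means of ADIRF, BNIPL and FAM83B differed by at most 1.29-fold.

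The response to EGF is a contrast within one kind of cell that the choice of genes did not use, and it was tested with limma-trend and Benjamini-Hochberg adjustment over all 13950 genes. FAM83B, the EGFR and RAS pathway scaffold, rose by 240 min in both kinds of cell, and BNIPL fell in scramble cells. None of the 7 was called at 40 min in either kind, where 0.846% of all genes were called higher and 0.00717% lower in scramble cells and 1.02% higher and 0.0215% lower in shLAD1 cells. No member had an unadjusted p under 0.05 at 40 min, and edgeR and DESeq2 called 0 there too. The 40 and 240 min comparisons share the 0 min libraries.

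At 240 min in scramble cells 1 of the 7 was called higher, beside 11.7% of all genes, and 1 lower, beside 8.44%. FAM83B went from 203.7 ± 27.48 to 428.1 ± 40.2 normalized counts (SD, n = 2), a log2 change of 1.07 ± 0.13 (SE; limma-trend adjusted p = 0.000677), and both libraries at 240 min lay above both at 0 min. BNIPL went from 81.03 ± 18.62 to 31.9 ± 0.543, a change of -1.30 ± 0.26 (limma-trend adjusted p = 0.00859), with the groups apart. The BNIPL call was lost without replicate 1 of the starved scramble cells, at -1.07 with a limma-trend adjusted p of 0.0689. BNIPL stayed called once replicate number entered the fit as a term (limma-trend adjusted p = 0.000688). When that term was set apart for each shRNA, its limma-trend adjusted p was 1.44e-06. PSCA had a change of -0.20 ± 0.24 (limma-trend adjusted p = 0.621). With a replicate block within each shRNA, its limma-trend adjusted p was 0.0308.

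At 240 min in shLAD1 cells 1 of the 7 was called higher, beside 10.8% of all genes, and 0 lower, beside 7.76%. FAM83B went from 388.9 ± 14.17 to 549.1 ± 34.25 (SD, n = 2), a log2 change of 0.50 ± 0.13 (limma-trend adjusted p = 0.0262). That call was lost without any 1 of the 4 libraries compared, with limma-trend adjusted p from 0.056 to 0.138, and with total-count scaling, where the change was 0.38. FAM83B stayed called once replicate number entered the fit as a term (limma-trend adjusted p = 0.00149). When that term was set apart for each shRNA, its limma-trend adjusted p was 4.26e-05. BNIPL went from 153.4 ± 34.22 to 107 ± 36.75, a change of -0.54 ± 0.26 (limma-trend adjusted p = 0.197, and 0.0141 with the replicate block within each shRNA). ALPP, ICA1, ADIRF and PCSK5 had changes of -0.22 to 0.36 over the 4 EGF comparisons, none called. The errors of ALPP and PCSK5, 0.84 and 0.87, come from the fit without a replicate block and carry the split between replicates. That fit could not detect small EGF changes in them. With the block within each shRNA, PCSK5 at 240 min in scramble cells had a limma-trend adjusted p of 0.0815. ALPP at 240 min in shLAD1 cells had 0.228 with that block, and neither was called.

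**Figure D3:**
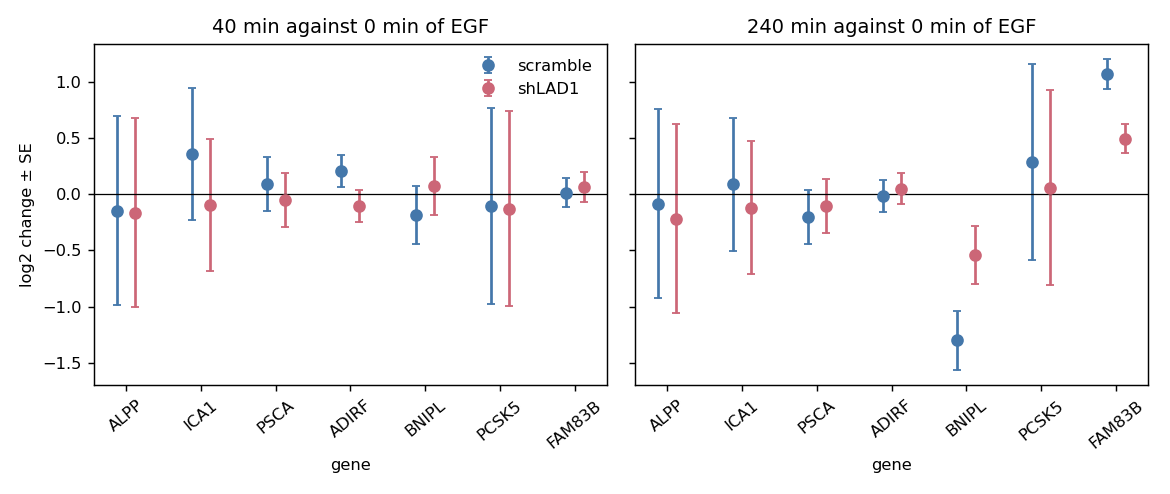
Log2 change of normalized count from 0 to 40 min (left) and 0 to 240 min (right) of EGF for each gene; points are fitted changes in scramble (blue) and shLAD1 cells (red), bars are standard errors from limma-trend, n = 2 libraries a group. FAM83B lies above 0 and BNIPL below 0 at 240 min.

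The sizes of the 240 min responses of these 2 genes also differed between the kinds of cell. The FAM83B response was smaller in shLAD1 than in scramble cells by 0.57 ± 0.18 on the log2 scale, from a higher starting level. The BNIPL fall was smaller in shLAD1 cells by 0.76 ± 0.37, and by 0.41 without replicate 1 of the shLAD1 cells at 240 min. With 1 library left out the range was 0.405 to 1.11 for BNIPL. For the other 5 the difference between responses was within -0.23 to 0.10 at 240 min, with ranges as wide as -1.23 to 0.96 (ALPP) when 1 library was left out. These differences are built from the per-time values that chose the genes and were not tested.

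The relatives of the 7 genes did not share one direction. Of 60 genes in 7 lists (other members of each family, RAB2 genes for ICA1 and adipogenic genes for ADIRF), 43 passed the filter, and limma-trend called 6 higher and 5 lower with the LAD1 shRNA over the 3 times. That is 14.0% and 11.6%, beside 9.25% and 9.3% of all genes. The 6 include ALPPL2, which passed the filter only through its shLAD1 libraries. Their median log2 difference was -0.03, beside -8.8e-07 over all genes. Because libraries of 1 shRNA and 1 number resembled each other across times, the test was also run on the mean of each of the 4 populations, 2 against 2. That run called 0 of the 43 relatives (8 at unadjusted p under 0.05) and 0 of all genes (1798 at unadjusted p under 0.05), so the calls below measure the spread between libraries.

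Among the alkaline phosphatases, 2 were tested and they went opposite ways. ALPPL2, the germ-cell type and nearest kin of ALPP, rose from 1.77 ± 1.47 to 30.7 ± 5.68 normalized counts (SD, n = 6 libraries), a log2 difference of 3.68 ± 0.38. Its scramble libraries held at most 4.14, so it passed the filter only through the shLAD1 libraries. The values are therefore a description, and no p-value is given for ALPPL2. Of the ALPP transcript's 50-base windows, 24.5% occur in the ALPPL2 transcript, and 29.3% the other way, so reads can be split between them and both levels are uncertain. ALPL, the tissue-nonspecific type found in bone and liver, fell from 945 ± 316 to 263 ± 156, a log2 difference of -2.01 ± 0.48 (limma-trend adjusted p = 0.0246). The ALPL groups did not overlap, but the call was lost without any 1 of the 3 scramble libraries of replicate 2 or the 3 shLAD1 libraries of replicate 1 (limma-trend adjusted p up to 0.0701).

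Of the 6 proprotein convertases tested, a list without PCSK5, none was called higher. PCSK6, the convertase also called PACE4, fell from 58.3 ± 5.52 to 23.6 ± 8.62 normalized counts, a log2 difference of -1.37 ± 0.26 (limma-trend adjusted p = 0.00764).

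In the LY6 and uPAR family of PSCA, 1 of 13 tested genes was higher and 1 lower. PLAUR, the urokinase receptor, rose by 0.69 ± 0.14 (limma-trend adjusted p = 0.0131). LY6E was at -0.20 ± 0.053 (limma-trend adjusted p = 0.0316, lost without 9 of the 12 libraries, up to 0.0903). Among 8 tested adipogenic genes, PPARG, the master regulator of fat cell formation, rose by 0.46 ± 0.07 (limma-trend adjusted p = 0.00307). LPIN1, a phosphatidate phosphatase of lipid synthesis, fell by 0.77 on the log2 scale (SE 0.043, limma-trend adjusted p = 4.27e-05). PLIN2, a coat protein of lipid droplets, was at 0.23 ± 0.066 (limma-trend adjusted p = 0.0402), lost without 9 of the 12 libraries (up to 0.0984).

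The other 3 lists held few calls. Among the BCH domain genes, BNIP2 was at 0.26 ± 0.066 (limma-trend adjusted p = 0.0271, lost without 8 of the 12 libraries, up to 0.0802), 1 of 3 tested. FAM83E was the single call of 6 FAM83 genes, at 0.30 ± 0.076 (limma-trend adjusted p = 0.0254, lost without 5 libraries, up to 0.0693). None of the 5 tested ICA1 relatives and RAB2 genes was called. PLAUR, PPARG, LPIN1 and PCSK6 kept their calls without any 1 library.

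Part of the FAM83 family moved in the same direction as FAM83B with EGF. At 240 min 3 of 6 other FAM83 genes rose in scramble cells and 3 of 6 in shLAD1 cells, and none was called lower (limma-trend; 11.7% and 10.8% of all genes rose). FAM83H, a scaffold of the keratin skeleton and casein kinase, rose by 0.83 ± 0.058 in scramble and 0.76 ± 0.058 in shLAD1 cells. FAM83G rose by 1.44 ± 0.19 and 1.28 ± 0.19, and FAM83F by 0.59 ± 0.11 and 0.47 ± 0.11. FAM83A was at 0.34 and 0.30, FAM83D at -0.45 and -0.26 and FAM83E at -0.30 and -0.079, none called. These 6 were named after their values were seen. At 40 min no FAM83 gene was called. Over all 43 relatives 8 were higher and 3 lower at 240 min in scramble cells, beside 11.7% and 8.44% of all genes. In shLAD1 cells 10 were higher and 1 lower, beside 10.8% and 7.76%. At 40 min the counts were 0 and 0 in scramble cells, beside 0.846% and 0.00717% of all genes. They were 1 and 0 in shLAD1 cells, beside 1.02% and 0.0215%.

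Genes beside the 7 on their chromosomes were also read, by a rule of position set after the members' values were known. The rule took the 2 nearest protein-coding genes present in these data on each side, in the RefSeq order of GRCh38.p14. Any overlapping gene was taken too. Of 20 tested neighbours that are not among the relatives, limma-trend called 6 higher and 1 lower with the LAD1 shRNA. The 6 are 30.0%, beside 9.25% of all genes, and the 1 lower is 5%, beside 9.3%. All 6 lie beside ADIRF or PCSK5, and they include AGAP11, which passed the filter only through its shLAD1 libraries. Beside ADIRF, AGAP11, which overlaps it, rose from 5.29 to 19.98 normalized counts (log2 difference 1.81 ± 0.26), and reads of the overlap could be counted to either gene. The scramble libraries held at most 7.88 of AGAP11, so its values are a description and no p-value is given. MMRN2, a matrix protein of blood vessels, went from 17.7 to 43.9 (1.20 ± 0.31, limma-trend adjusted p = 0.0275). SNCG, the synuclein gene next to ADIRF, went from 132 to 322, which did not pass the test (1.25 ± 0.41, limma-trend adjusted p = 0.0668). GLUD1 was at 0.16 ± 0.045 (limma-trend adjusted p = 0.0371).

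Beside PCSK5, GCNT1, an enzyme that branches O-linked sugar chains, rose from 22.0 to 106 normalized counts (log2 difference 2.07 ± 0.46, limma-trend adjusted p = 0.0183). RFK, riboflavin kinase, rose from 338 to 496 (0.54 ± 0.11, limma-trend adjusted p = 0.012), and NMRK1 was at 0.25 ± 0.067 (limma-trend adjusted p = 0.0307). GCNT1 shared the replicate split of PCSK5 in shLAD1 cells, with means of 163 in replicate 1 and 48.6 in replicate 2. In scramble cells GCNT1 ran the other way, with means of 17.2 and 26.8, beside 100 and 34.7 for PCSK5. The GCNT1 difference between the shRNAs was therefore much larger in replicate 1 than in replicate 2. Beside ICA1, NDUFA4 was at -0.16 ± 0.044 (limma-trend adjusted p = 0.0315). No tested neighbour of PSCA, BNIPL or FAM83B was called, nor DIS3L2 beside ALPP. RFK and GCNT1 kept their calls without any 1 library. MMRN2 was lost without 8 of the 12 libraries (up to 0.0794), GLUD1 without 9 (up to 0.101), and NMRK1 and NDUFA4 without 8 each (up to 0.0913 and 0.0918). On the means of the 4 populations 0 of the 20 were called, with 4 at unadjusted p under 0.05.

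**Figure D4:**
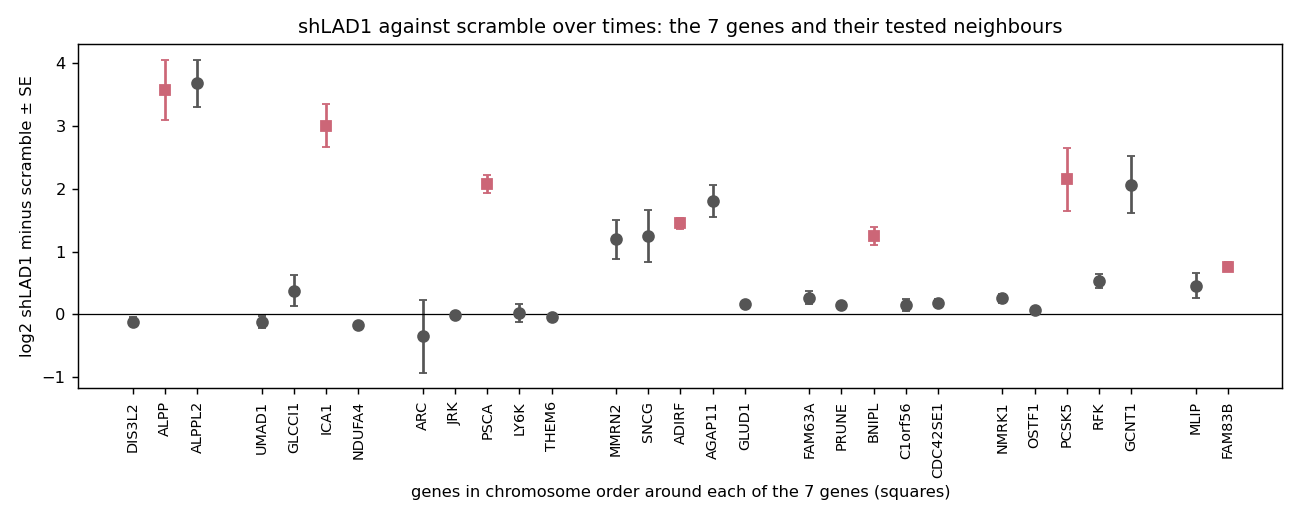
Log2 difference (shLAD1 minus scramble, averaged over 3 times) of the 7 genes (red squares) and their tested neighbours (grey circles) in chromosome order, with gaps between loci; bars are standard errors from limma-trend over 12 libraries. High neighbours stand beside ALPP (ALPPL2), ADIRF and PCSK5, and the tested neighbours of PSCA, ICA1, BNIPL and FAM83B lie between -0.35 and 0.46.

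Among the 7, levels followed each other across the 12 libraries to unequal degrees, mostly through the shRNA they were chosen on. Pearson's r of log2 levels ran from 0.125 (BNIPL with FAM83B) to 0.981 (PSCA with ADIRF). After the mean of each shRNA was subtracted, BNIPL and FAM83B had r = -0.94, the pair that moved in opposite directions with time. ALPP with PSCA had -0.714, ICA1 with PCSK5 had 0.719 and ALPP with PCSK5 had 0.7, pairs that share the split by replicate number. All these points share the same libraries, and the values are given as a description.

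The genes most like each member were taken from 11236 genes with a mean of at least 50 normalized counts, by Pearson's r over the 12 libraries. They were CYP2J2 (0.987), SPRR1B (0.978) and DDOST (0.971) for ALPP, and USF2 (0.984), DGKA (0.983) and HDAC1 (0.979) for PSCA. For PCSK5 they were APLP2 (0.99), CWH43 (0.988) and PODXL2 (0.984), and for ICA1 DYNLRB1 (0.982), A2ML1 (0.98) and MUC16 (0.977). ADIRF came closest to TMPRSS11E (0.978), FAM89B (0.973) and SEPN1 (0.971), BNIPL to TCTN2 (0.971), PLCD1 (0.968) and RIMKLB (0.963), and FAM83B to IGSF8 (0.976), EHD2 (0.972) and FSCN1 (0.971). Spearman's rho named the same gene in 3 of the 21 places. With the shRNA means subtracted the closest genes were MSLN for ALPP (0.974), C11orf31 for PSCA (0.936), AKR1B10 for PCSK5 (0.994), CHCHD1 for ICA1 (0.965), ATP5L for ADIRF (0.876), HOXC6 for BNIPL (0.976) and MGRN1 for FAM83B (0.98).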

How the data were processed

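The authors deposited 1 table. Its signal columns are read counts that the authors divided by a size factor, as the values show: every value was a whole multiple, to within 0.001, of the lowest value above 0 in its library. The deposited table also holds log2 fold changes, a score (the Wald statistic) and p-values of a comparison that the file headers do not name, and none of these are used here. STAR, DESeq2 and hg19 are named in the submitters' processing notes. For their versions, the counter, the annotation and strand: not given in the sources used here.

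limma-trend (limma 3.58.1, R 4.3.3, robust) was fitted to log2(normalized count + 1) of the 13950 genes that reached 10 normalized counts in 2 or more of 12 libraries, with a mean per group and calls at a Benjamini-Hochberg adjusted p under 0.05. The pseudocount of 1 understates changes of low genes, and 20013 genes had a read. The planned edgeR test needs counts, so edgeR 4.0.16 and DESeq2 1.42.0 on the recovered reads served as alternatives. The script was tested on simulated data.

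The members and lists were chosen with earlier results of these data known. Named genes are the 7 members and LAD1, the 3 genes most like each member, and up to 4 called relatives per list. Others were named after their values were seen. A called relative is not reported here by name. The labels do not say that replicates are separate cultures, so p-values measure only the spread between these samples, possibly a technical one. Replicates 1 and 2 correspond to 2 column prefixes whose meaning the labels do not give. Deviations from group means correlated at 0.645 to 0.734 between same-numbered libraries of groups with the same shRNA (6 pairs of groups). With different shRNAs they correlated at 0.247 to 0.307 (9 pairs), so the numbers pair the samples. Fits with a replicate block are given where they change a call and for some genes where they do not. Replicates of a group differed beyond counting noise, with a chi-square per degree of freedom of 8.68 to 21.6. Levels are not compared between genes, since no value is per length.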

Additional observations from a re-analysis of the deposited data

How the results depend on the processing

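No alternative at 40 min called a member higher or lower. At 240 min in scramble cells the members called lower went from 1 to 2 with a replicate block within each shRNA and to 0 to 1 when a library was left out. The PSCA change there, -0.20, turned to 0.0686 without replicate 2 of the starved scramble cells and ran from -0.476 to 0.0686 over the 4 such runs. In shLAD1 cells at 240 min the members called higher went from 1 to 0 with total-count scaling, to 0 when only the groups compared were fitted and to 0 without any 1 of the 4 libraries, and the members called lower went from 0 to 1 with the block within each shRNA. The replicate block raised the relatives called from 6 to 10 higher and from 5 to 10 lower, and the neighbours called higher from 6 to 11. On population means these 4 counts were 0, and leaving out a library gave 3 to 7 and 2 to 5 relatives and 3 to 7 and 0 to 1 neighbours. The population means and all neighbour runs were added after seeing the data. Over all genes, calls at 40 min went from 119 to 202 (replicate block), 530 (block within each shRNA) and 55 to 58 (a library left out) in scramble cells, and from 145 to 274, 666 and 75 to 106 in shLAD1 cells, with 219 by DESeq2 and 30 from only the groups compared. At 240 min they went from 2813 to 4557, 6715 and 1355 to 1699 in scramble cells, and from 2585 to 4249, 6450 and 1300 to 1888 in shLAD1 cells, with 313 from only the groups compared. For the shRNA they went from 2588 to 5034 (replicate block), 0 (population means) and 1460 to 2793. The cause of these shifts was not tested. Depth limits ICA1 in scramble cells, at 11 to 30 reads, and ALPPL2.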
